A study of Mus musculus with 16 samples.

Results

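The effect of nicotinamide riboside (NR) on gene expression in the normal cerebellum was read from 8 of the 16 arrays of the study, the 4 of wild-type mice given NR (WT NR) against the 4 of wild-type mice given water alone (WT veh). Members were chosen by the group in the array titles and by nothing that was measured. All mice were littermates of the B6;129S4-Atmtm1Bal/J line, a mixed background in which a targeted allele inactivates Atm, the kinase that signals DNA double-strand breaks and is lost in ataxia telangiectasia, and the mice compared here are described only as wild type. From 6 weeks of age, NR mice drank water with 3.5 mg/ml NR (12 mM) for 2 months, so that the tissue was taken at 3.5 months, and each array holds RNA from the cerebellar cortex of 1 mouse. The other 8 arrays hold the same treatments in Atm-/- mice (Atm-/- veh and Atm-/- NR, 4 each) and enter the shared fit, its estimate of the spread and a second reading of the genes named in WT.

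NR is a form of vitamin B3 that cells phosphorylate by NR kinases and then join to an adenylate group to make NAD+, the coenzyme of redox metabolism and the substrate of sirtuins, poly-ADP-ribose polymerases and NAD+ hydrolases. The cerebellar cortex holds a single row of Purkinje cells, its only output neurons, above a dense layer of granule cells, with inhibitory interneurons and Bergmann glia between them. The deep cerebellar nuclei, the meninges and the choroid plexus lie next to it. The study asked what NAD+ supply does to senescence, inflammation and mitochondrial quality control, and the wild-type pair shows NR without the disease allele.

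Values are log2 signals of Agilent 1-colour arrays after quantile normalization, and a difference of 1 is a doubling. A positive difference means a higher signal in WT NR. Differences were tested with limma over all 16 arrays (n = 4 in each group, two-sided), and a probe was called when its p after Benjamini-Hochberg adjustment was under 0.05. Between 36402 and 40010 probes per array were well above background in WT NR and between 37843 and 42559 in WT veh, and the number of arrays limits the precision. The 95% interval of a difference reached 0.337 to either side of it at the median probe. The labelled tissue was checked by its markers, and all 20 measured Purkinje cell genes and all 17 measured granule cell genes were well above background on all 8 arrays.

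The 8 arrays differ in ways the labels do not give. The labels list every mouse as male, but on WT NR 1 and WT NR 4 Xist, the RNA that silences an X chromosome, was detected while signal of the Y-linked genes Eif2s3y, Kdm5d (2 of its 3 probes) and Uty was not, and the other 6 arrays showed the reverse. WT NR 2, WT NR 3 and WT veh 4 had the highest signals of genes of cerebellar nuclear neurons, and WT veh 4 also had high signals of choroid plexus and forebrain genes and lay farthest from the other arrays on the first principal component, at -80.4 where the other 7 lay between -28.2 and 51.3. The 8 WT arrays shared 1 slide with the veh arrays in its first row and the NR arrays in its second, so that row and treatment cannot be told apart. Marks for outlier spots were also more numerous with NR, between 189 and 278 per WT NR array and between 99 and 174 per WT veh array. The Atm-/- arrays were laid out in the same way on a second slide, with 220 to 270 outlier marks per Atm-/- NR array and 65 to 123 per Atm-/- veh array, so that a direction shared by the genotypes is not free of row. Some results below are therefore given also without some of these arrays. Where no such value is given, a result may still change without them. The part of row and of outlier spots in any result was not tested.

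No probe passed the test in wild-type cerebellum. Of 37253 probes, limma called 0 (0.0%), and the lowest adjusted p was 0.229. Without adjustment, 2838 probes (7.62%) had a p under 0.05, of which 1381 were higher and 1457 lower with NR, and the methods' t-test on z-scores of the same values put 2476 probes under that threshold and 0 after adjustment. The 2 groups did not overlap at 1522 probes (4.09%), 593 higher and 929 lower. Taking the brightest probe of each of 16737 named genes, 1479 genes (8.84%) had an unadjusted p under 0.05, 675 of them higher (4.03%) and 804 lower (4.8%), and the median difference of all genes was -0.0060. The same test called 3366 of 37253 probes (9.04%) and 1920 of 16737 genes (11.5%) in Atm-/- NR against Atm-/- veh. The difference between the NR effects of the genotypes was called at 0 of 37253 probes (0.0%), with 1962 (5.27%) at an unadjusted p under 0.05, so a smaller response in wild type was not shown.

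The genes below were therefore named by rank and not by a call. They are the 12 largest positive and the 12 largest negative differences among genes well above background on all 8 WT arrays, with an unadjusted p under 0.05 and with groups that did not overlap. Groups did not overlap at 286 named genes that were higher (1.71%) and 480 that were lower (2.87%), and the whole rule passed 205 and 338 genes. Because the rule uses the WT arrays, the WT differences of these 24 genes are a description. Their limma adjusted p lay between 0.229 and 0.641 in wild type. The NR effect on the 8 Atm-/- arrays was not used by the rule and is given beside each.

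**Figure D1:**
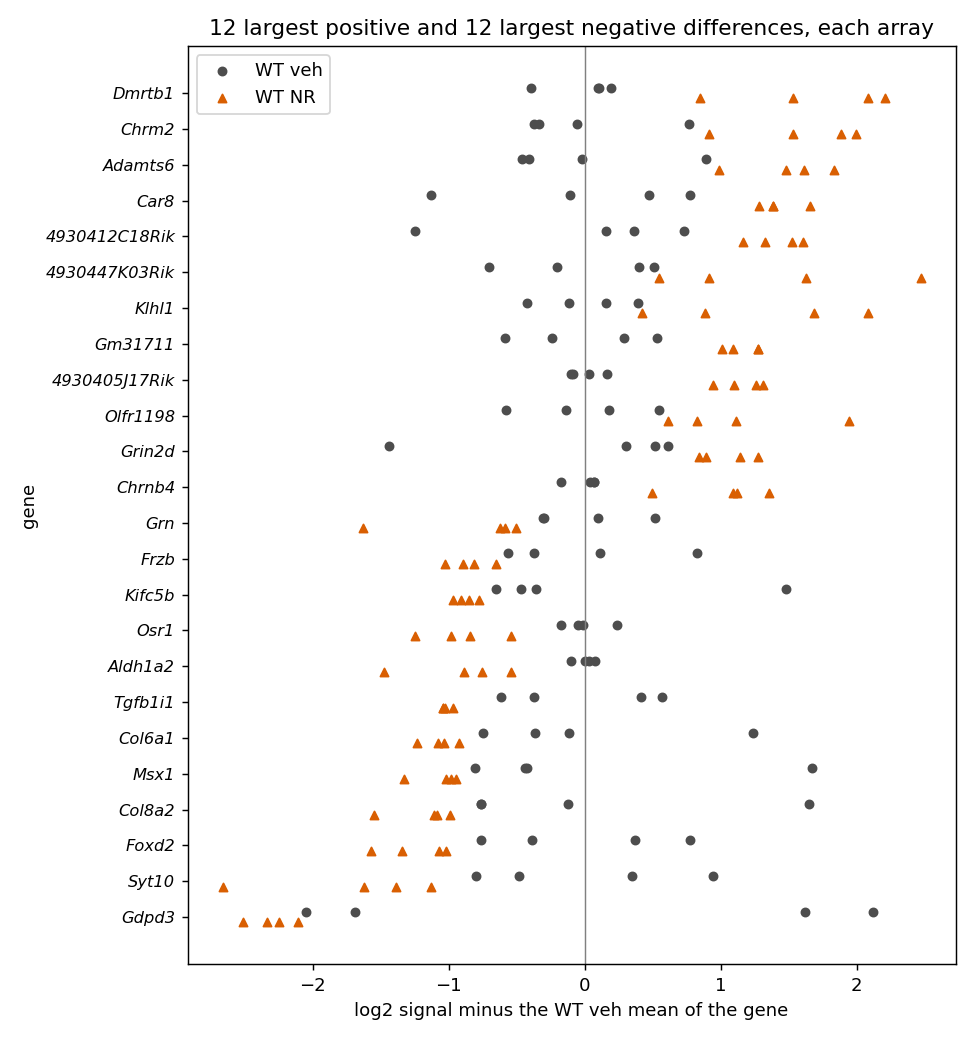
Each row is 1 of the 24 genes, each circle 1 WT veh array and each triangle 1 WT NR array, and the horizontal axis gives log2 signal minus the WT veh mean of that gene. Car8, Gm31711 and 4930405J17Rik show tight WT NR groups, while WT veh is split for Gdpd3 and has 1 high array, WT veh 4, for Col8a2, Msx1 and Kifc5b.

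Car8 and Klhl1, both from the list of Purkinje cell markers, stood among the 12 positive differences. Car8 makes a carbonic anhydrase-related protein that binds the inositol trisphosphate receptor in Purkinje cells. Its log2 signal was 14.05, 12.45, 14.36 and 13.47 on WT veh 1 to 4 and 15.24, 14.97, 14.86 and 14.97 on WT NR 1 to 4. Every WT NR array lay above every WT veh array, and the NR arrays lay close together (15.01 ± 0.161 against 13.58 ± 0.839, mean ± SD, n = 4 each). The difference was 1.43 (SE 0.31, adjusted p = 0.371). The second probe of Car8 differed by 1.47 (adjusted p = 0.238), and without WT veh 3 it passed the test at 1.72 (adjusted p = 0.0481). On the Atm-/- arrays Car8 rose with NR by 1.10 (adjusted p = 0.0417).

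Klhl1 encodes an actin-binding kelch-like protein enriched in Purkinje cells. It gave 9.50, 9.26, 8.99 and 8.68 in WT veh and 9.53, 11.19, 10.79 and 9.99 in WT NR. WT NR 1 exceeded the highest WT veh array by very little, and WT NR 2 and WT NR 3 were the highest. The difference was 1.27 (SE 0.39, adjusted p = 0.52), and it was 0.65 without WT NR 2 and WT NR 3, the arrays with high nuclear neuron genes. Klhl1 rose in Atm-/- mice by 1.36 (adjusted p = 0.045), where Atm-/- NR 2 and Atm-/- NR 3 were again the highest at 10.75 and 10.96 against 9.37 and 9.47 on the others.

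Of the 12, 3 encode neurotransmitter receptors. Chrm2, the muscarinic acetylcholine receptor M2, gave 6.30, 5.20, 5.17 and 5.48 in WT veh and 6.45, 7.42, 7.53 and 7.07 in WT NR. The lowest NR array stood just above the highest veh array, and the difference was 1.58 (SE 0.44, adjusted p = 0.494; in Atm-/- mice 1.08, adjusted p = 0.13). Atm-/- NR 2 and Atm-/- NR 3 stood at 7.12 and 7.22 against 5.65 and 5.21 on the other Atm-/- NR arrays. Chrnb4, the beta 4 subunit of nicotinic acetylcholine receptors, gave 7.80, 7.55, 7.80 and 7.77 in WT veh and 8.82, 8.85, 9.08 and 8.23 in WT NR. The veh arrays were close to each other and all NR arrays were above them. The difference was 1.01 (SE 0.30, adjusted p = 0.501), and 0.79 without WT NR 2 and WT NR 3. Chrnb4 rose in Atm-/- mice by 1.30 (adjusted p = 0.021). Atm-/- NR 2 and Atm-/- NR 3 stood at 8.92 and 9.84 against 8.60 and 8.53 on the other Atm-/- NR arrays. Grin2d, a subunit of NMDA-type glutamate receptors, differed by 1.04 (SE 0.34, adjusted p = 0.543; in Atm-/- mice 0.54, adjusted p = 0.327), but WT veh 1 was low at 9.72 where the other veh arrays lay between 11.47 and 11.78, and without it the difference was 0.56.

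Dmrtb1, a DM-domain transcription factor known from the germ line, had the largest positive difference. It gave 5.77, 5.78, 5.87 and 5.28 in WT veh and 7.20, 6.52, 7.88 and 7.76 in WT NR. The veh arrays were close together and every NR array was above them, with WT NR 2 the lowest. The difference was 1.66 (SE 0.26, adjusted p = 0.229), it passed the test without WT NR 2 (1.94, adjusted p = 0.0105), and in Atm-/- mice it was 0.71 (adjusted p = 0.0987). Adamts6, a secreted metalloprotease, differed by 1.48 in WT (adjusted p = 0.571) and by -0.15 in Atm-/- mice (adjusted p = 0.888). Olfr1198, an olfactory receptor of a large gene family whose members can share signal, differed by 1.12 (in Atm-/- mice 1.38, adjusted p = 0.0898).

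The other 4 positive differences were genes known only by clone or model names. Gm31711 gave 8.39, 8.05, 9.16 and 8.92 in WT veh and 9.91, 9.72, 9.91 and 9.64 in WT NR. All NR arrays were above all veh arrays and close to each other. The difference was 1.16 (SE 0.22, adjusted p = 0.365), and Gm31711 rose in Atm-/- mice by 1.13 (adjusted p = 0.013). 4930412C18Rik differed by 1.40 in WT and rose by 1.09 in Atm-/- mice (adjusted p = 0.0382), and 4930447K03Rik differed by 1.39 in WT and rose by 1.23 in Atm-/- mice (adjusted p = 0.0476). 4930405J17Rik gave 5.50, 5.25, 5.24 and 5.37 in WT veh and 6.65, 6.44, 6.60 and 6.28 in WT NR, with a small spread in both groups and a difference of 1.15 (SE 0.21, adjusted p = 0.256; in Atm-/- mice 0.68, adjusted p = 0.0572).

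The 12 negative differences held 2 collagen chains, Col6a1 and Col8a2, and 3 transcription factors, Msx1, Foxd2 and Osr1. Col6a1, a chain of collagen VI, gave 10.48, 9.85, 10.23 and 11.83 in WT veh and 9.67, 9.56, 9.52 and 9.36 in WT NR. The NR arrays were tight and below all veh arrays, of which WT veh 4 was far the highest. The difference was -1.07 (SE 0.33, adjusted p = 0.522; in Atm-/- mice -0.63, adjusted p = 0.24), and -0.66 without WT veh 4. Col8a2, a collagen VIII chain, Msx1, which has a homeobox, and Kifc5b, a kinesin with near-identical family copies, rested on WT veh 4 as well. Their differences of -1.18, -1.07 and -0.88 became -0.63, -0.51 and -0.38 without it. In Atm-/- mice the differences were 0.01, -0.21 and 0.34, so that Col8a2 and Kifc5b had the opposite sign there, and none passed the test.

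Tgfb1i1 makes Hic-5, a focal adhesion adaptor of smooth muscle and fibroblasts. It gave 10.24, 10.00, 11.03 and 11.18 in WT veh and 9.65, 9.57, 9.58 and 9.59 in WT NR. The NR arrays were almost equal and all below the veh arrays, which split into 2 lower and 2 higher values. The difference was -1.02 (SE 0.28, adjusted p = 0.494), and its other probe differed by -0.71. Tgfb1i1 was the only one of the 12 genes called in Atm-/- mice (-0.97, adjusted p = 0.0476), where 10 of the 12 were lower.

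Aldh1a2, which makes retinoic acid and is known in the meninges, gave 11.08, 10.98, 11.11 and 11.16 in WT veh and 10.33, 10.54, 10.20 and 9.61 in WT NR. The veh arrays were tight and all NR arrays were lower, with a difference of -0.92 (SE 0.33, adjusted p = 0.571; in Atm-/- mice -0.40, adjusted p = 0.457). Foxd2 and Osr1 differed by -1.25 and -0.91, and Frzb, a secreted Wnt antagonist, by -0.85 with -0.70 at its other probe. In Atm-/- mice these 3 differed by -0.10, -0.38 and -0.42, and none passed the test.

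The remaining negative differences were less uniform. Gdpd3, a lipid phosphodiesterase, gave 6.13, 6.49, 10.30 and 9.79 in WT veh and 6.07, 5.67, 5.84 and 5.93 in WT NR. Veh arrays 3 and 4 were high and veh arrays 1 and 2 were near the NR arrays, so the difference of -2.30 had an SE of 1.03 (adjusted p = 0.641). Atm-/- veh mice split the same way, with 10.36 and 9.83 on arrays 1 and 2 and 6.34 and 6.17 on arrays 3 and 4, against 5.40 to 6.27 in Atm-/- NR (difference -2.39, adjusted p = 0.152). Syt10, a synaptotagmin, differed by -1.70 at its brightest probe (SE 0.48, adjusted p = 0.494) and by -0.08 at its other probe, and by -1.08 in Atm-/- mice (adjusted p = 0.16). Grn, the gene of progranulin, differed by -0.84 at its brightest probe and by -0.03 and -0.15 at the others, and by -0.29 in Atm-/- mice (adjusted p = 0.529).

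The same 24 genes were read on the Atm-/- arrays, where row of the slide and treatment also cannot be told apart. This reading shares its pooled spread with the naming rule, so it is not an independent test. Of the 12 positive genes, 11 were also higher with NR in Atm-/- mice and 6 passed the test there (Car8, Klhl1, Chrnb4, Gm31711, 4930412C18Rik and 4930447K03Rik), where 6.67% of all named genes were called higher. Of the 12 negative genes, 10 were also lower in Atm-/- mice and 1 passed, where 4.8% of all named genes were called lower. The median Atm-/- difference was 1.10 for the first 12 and -0.39 for the second. The difference between the genotypes in the NR effect was called for none of the 24, with adjusted p from 0.839 upward. All 24 kept their sign in WT without WT NR 1 and WT NR 4 and without WT NR 2 and WT NR 3. The rule took only genes whose WT groups did not overlap. It therefore all but fixed these signs in advance, and they are no check of the genes. The number of the 24 called in Atm-/- mice fell from 7 to 1 over the arrays with Y-gene signal only. It was 1 without Atm-/- NR 2 and Atm-/- NR 3, and between 2 and 4 without any single Atm-/- array. Without Atm-/- NR 3 only Gm31711 of the 7 was called, and Aldh1a2 was called in addition (-0.83, adjusted p = 0.0392). The number was 2 without WT NR 3, 3 without WT NR 4 and between 5 and 7 without any other single WT array. Gm31711 was called in all 16 fits with 1 array left out, Chrnb4 in 15 (not without Atm-/- NR 3) and the other 5 genes in 4 to 8.

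**Figure D2:**
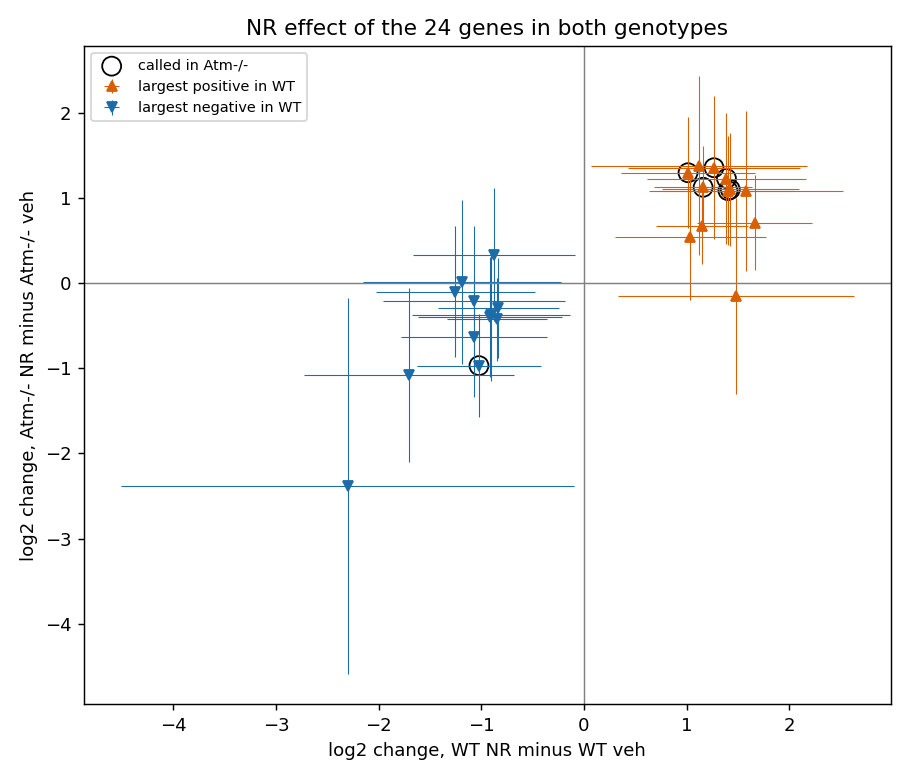
Each marker is 1 of the 24 genes, with the log2 difference of WT NR minus WT veh on the horizontal axis, that of Atm-/- NR minus Atm-/- veh on the vertical axis, bars for 95% intervals and black rings for the 7 genes called in Atm-/- mice. The positive genes lie mostly near 1 on the vertical axis, and most of the negative genes lie between 0 and -1 there.

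Of the 7 genes called in Atm-/- mice, 4 have a promoter in the RefSeq table (assembly GRCm38.p6), each read from 250 bases before to 50 after the transcription start. The promoters of the receptor Chrnb4 and the Purkinje cell gene Klhl1 are shown. Those of 4930412C18Rik and 4930447K03Rik are not, though these genes too were higher with NR in each genotype. Chrnb4 starts within chr9:55048495-55048794 (minus strand) and Klhl1 within chr14:96518985-96519284 (minus strand). Capitals mark matches to the TATA box letters TATAAA, the CCAAT box letters CCAAT or the E-box letters CACGTG on either strand.
Chrnb4: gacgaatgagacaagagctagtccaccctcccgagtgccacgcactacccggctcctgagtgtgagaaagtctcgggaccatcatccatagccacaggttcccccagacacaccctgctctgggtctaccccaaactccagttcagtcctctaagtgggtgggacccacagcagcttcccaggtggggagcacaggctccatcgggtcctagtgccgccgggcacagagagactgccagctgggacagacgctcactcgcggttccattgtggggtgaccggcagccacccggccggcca
Klhl1: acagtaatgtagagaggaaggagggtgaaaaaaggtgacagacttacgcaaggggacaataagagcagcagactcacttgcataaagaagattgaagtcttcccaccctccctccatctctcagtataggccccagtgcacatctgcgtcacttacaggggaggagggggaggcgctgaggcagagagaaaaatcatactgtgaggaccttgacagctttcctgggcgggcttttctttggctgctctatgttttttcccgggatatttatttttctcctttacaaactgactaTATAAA
The Chrnb4 window held none of the 3 motifs and the Klhl1 window held 1 TATAAA, at its downstream end. Among 32851 promoters of the same length, 13.6% held TATAAA, 37.4% CCAAT and 7.15% CACGTG, so these matches set neither gene apart. The GC content was 63% for Chrnb4 and 47% for Klhl1, against a median of 52.7% over all promoters. Of the promoters not shown, that of 4930447K03Rik held 1 CCAAT match and that of 4930412C18Rik held none of the motifs.

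The text of the study names 3 immune-related genes for WT NR, and since they were picked from these same arrays their direction is not independent evidence. Its supplementary table also gives WT NR against WT veh for genes ranked above, among them Car8, Klhl1, Chrnb4, 4930412C18Rik, Syt10, Tgfb1i1, Col6a1 and Frzb. Pstpip2, a cytoskeletal adaptor of macrophages, gave 8.93, 8.79, 8.45 and 8.58 in WT veh and 8.80, 10.11, 10.19 and 9.16 in WT NR. WT NR 2 and WT NR 3 were high and WT NR 1 lay inside the veh range. The difference was 0.88 (SE 0.26, adjusted p = 0.501), and its second probe differed by -0.04. It was 1.46 without WT NR 1 and WT NR 4 (adjusted p = 0.00627) and 0.29 without WT NR 2 and WT NR 3 (adjusted p = 0.83), and in Atm-/- mice it was 0.14 (adjusted p = 0.763).

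Atp6v1g3, a subunit of the vacuolar proton pump, gave 7.22, 7.0, 8.03 and 7.55 in WT veh and 8.49, 8.23, 8.01 and 8.16 in WT NR. Only WT veh 3 reached the NR range. The difference was 0.77 (SE 0.23, adjusted p = 0.501), and the gene rose in Atm-/- mice by 0.98 (adjusted p = 0.0212; not called without Atm-/- veh 1, Atm-/- veh 3 or Atm-/- NR 4). Adgrg3, an adhesion G protein-coupled receptor of neutrophils, differed by 0.91 (SE 0.31, adjusted p = 0.558) with WT veh 3 at 10.96 inside the NR range of 10.66 to 10.98. Atm itself was well above background in both groups and differed by -0.17 at its brightest probe (adjusted p = 0.78). Its other probe differed by -0.26 (adjusted p = 0.529). The brightest Atm probe was well above background on all 8 Atm-/- arrays too, with means of 8.77 in Atm-/- veh and 8.84 in Atm-/- NR against 9.12 in WT veh and 8.96 in WT NR. Whether it lies in the targeted part of the gene was not determined, so these values do not check the genotype labels.

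Genes that make or use NAD+ showed no call. Of 27 measured genes of NAD+ synthesis and its precursors, 1 was higher and 3 were lower at an unadjusted p under 0.05, and the median difference was -0.06 beside -0.0060 for all genes. For this and every list below, 4.03% of all named genes were higher and 4.8% lower at that p. Slc12a8, reported as a nicotinamide mononucleotide transporter, gave 13.22, 13.08, 13.59 and 13.31 in WT veh and 13.84, 13.64, 13.62 and 13.61 in WT NR. All NR arrays were above all veh arrays, by a small margin from WT veh 3. The difference was 0.38 (SE 0.11, adjusted p = 0.502). Aox1, an aldehyde oxidase that clears nicotinamide derivatives, differed by -0.43 (SE 0.13, adjusted p = 0.508), and the arrays did not overlap. The other lower genes, named after their values were seen, were Nnmt, which methylates nicotinamide (-0.95, and -0.35 without WT veh 4, at 8.80 above the other 7 arrays), and the transporter Slc29a4 (-0.34).

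The enzymes on the path of NR itself had small differences. The NR kinase Nmrk1 differed by -0.06 (95% interval -0.38 to 0.26) and Nmrk2 by 0.22 (-0.39 to 0.82). Nampt, which salvages nicotinamide, differed by -0.13 (-0.33 to 0.08). The transferases that complete NAD+, Nmnat1, Nmnat2 and Nmnat3, differed by 0.09, -0.14 and 0.13, and none of these 6 genes had an unadjusted p under 0.05. All but Nmrk2 moved by over 1.5 times when single WT arrays were left out. Of 29 NAD+-consuming enzymes, 0 were higher and 3 were lower at that level (median -0.04). These were Parp12 (-0.45, adjusted p = 0.589), Parp3 (-0.20, adjusted p = 0.621) and, named after its value was seen, the sirtuin Sirt6 (-0.20). Parp3 and Sirt6 fell in Atm-/- mice, by 0.41 (adjusted p = 0.0143) and by 0.47 (adjusted p = 0.0114).

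Mitochondrial genes were described by 3 lists. In the respiratory chain list, 55 of 72 measured subunits were above 0, 10 were higher and 0 lower at an unadjusted p under 0.05, and the median difference was 0.08. Over all 16737 named genes, 8119 were above 0, and 4.03% were higher and 4.8% lower at that p. Ndufa4 gave 16.41, 16.34, 16.33 and 15.97 in WT veh and 16.53, 16.52, 16.64 and 16.59 in WT NR. The NR arrays were all higher, and WT veh 4 was the lowest array. The difference was 0.31 (SE 0.09, adjusted p = 0.501), and the ATP synthase subunit Atp5g3 differed by 0.21 (adjusted p = 0.571). The median of the list was 0.05 without WT veh 4 and 0.12 with 75th percentile scaling. In Atm-/- mice, 6 of the 72, Ndufa4 among them, were called higher and 0 lower. There 6.67% of all named genes were called higher and 4.8% lower. Ndufa4 was called in 6 of 16 fits with 1 array left out, and in none of those without an Atm-/- array other than Atm-/- veh 2. The array means of the list overlapped, from -0.12 to 0.01 in WT veh and from -0.03 to 0.08 in WT NR.

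Mitophagy and autophagy genes had a median of 0.01, with 1 higher and 2 lower of 39. Atg3, an enzyme that lipidates LC3, differed by 0.34 (adjusted p = 0.52; 0.23 without WT veh 1), and Calcoco1, an autophagy receptor, by -0.31 (adjusted p = 0.522). Of 17 genes of the mitochondrial unfolded protein response, 5 were above 0 and 12 below, with a median of -0.0093. At an unadjusted p under 0.05, 2 were higher and 0 lower, the chaperone Dnaja3 by 0.28 and the protease subunit Afg3l2 by 0.23 (0.15 without WT veh 4). Dnaja3 differed by 0.11 without WT NR 1 and WT NR 4, and Afg3l2 by 0.07 without WT NR 2 and WT NR 3.

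Inflammation and senescence lists were near the centre of all genes. No gene of 30 in the cGAS-STING and interferon list had an unadjusted p under 0.05, and its median was 0.0044. Sting1, the adaptor of cytosolic DNA sensing, gave 8.94, 9.09, 8.87 and 9.46 in WT veh and 8.77, 8.94, 9.05 and 9.09 in WT NR. The groups overlapped, and the difference was -0.12 (95% interval -0.42 to 0.17; -0.00048 without WT veh 4). Of 28 NF-kB and inflammasome genes (median 0.03), 1 was lower, the inhibitor Nfkbib (-0.22, adjusted p = 0.571). At its brightest probe, the DNA sensor Aim2 was higher on all NR arrays than on all veh arrays. The difference was 0.59 only through WT NR 1 at 7.67, where the other NR arrays lay between 6.43 and 6.48, and 0.27 without it. The other probe of Aim2 differed by -0.16. Rela and Nlrp3 differed by 0.06 and -0.17. Il6 was well above background on 1 of 8 WT arrays at 1 of its 2 probes and on none at the other, and Il1b on 2 and on none, so neither has a level to compare here.

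Of 27 senescence and p53 genes, 1 was higher and 1 lower at an unadjusted p under 0.05, with a median of -0.03. Cdkn1a, the p21 inhibitor of the cell cycle, gave 9.74, 9.76, 9.81 and 9.44 in WT veh and 9.52, 9.29, 9.29 and 9.22 in WT NR. WT NR 1 overlapped with WT veh 4, and the difference of -0.36 had an interval of -0.99 to 0.27 (adjusted p = 0.835). Trp53 differed by -0.36 (adjusted p = 0.637), by -0.20 without WT NR 4 and by -0.15 without WT NR 1 and WT NR 4. Both fell in Atm-/- mice, Cdkn1a by 1.13 (adjusted p = 0.0309) and Trp53 by 0.74 (adjusted p = 0.0165), while the difference between the genotypes was not called for either. Atm-/- veh 3 stood at 11.64 for Cdkn1a where the other Atm-/- veh arrays lay between 9.72 and 10.24, and without it Cdkn1a fell by 0.73 (adjusted p = 0.0156). Neither gene was called without Atm-/- veh 1 or Atm-/- NR 3, nor was Cdkn1a without Atm-/- NR 2 or Atm-/- NR 4. Gadd45a, a DNA damage response gene, differed by 0.88, with WT veh 1 at 8.16 where the other 7 arrays lay between 10.33 and 10.95, and by 0.29 without that array. Cdkn2a was dim and differed by 0.08.

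The other pathway lists held few differences at an unadjusted p under 0.05, and their medians lay between -0.06 and 0.0058. Of 30 antioxidant genes, 1 was higher and 2 were lower, the extracellular superoxide dismutase Sod3 (-0.30, and -0.18 without WT veh 4) and catalase, Cat (-0.21). Of 21 heat shock genes, 1 was higher. Hsp90aa1, the inducible HSP90, gave 16.52, 16.49, 16.52 and 16.55 in WT veh and 16.63, 16.79, 16.73 and 16.86 in WT NR. All NR arrays were above the tight veh arrays, by 0.23 (SE 0.10, adjusted p = 0.611), and the gene rose in Atm-/- mice by 0.37 (adjusted p = 0.0294; called in 10 of 16 fits with 1 array left out, and not without Atm-/- veh 1, 3 or 4 or Atm-/- NR 2, 3 or 4). Of 17 clock genes, 2 were lower, Arntl (-0.24, with 0.02 and -0.46 at its other probes) and Nr1d1 (-0.28). Without WT NR 2 and WT NR 3, Arntl differed by -0.15 and Nr1d1 by -0.16. Nr1d1 fell in Atm-/- mice by 0.65 (adjusted p = 0.0101). Of 20 immediate early genes, 1 was lower, Nr4a2 (-0.42), and of 19 vacuolar ATPase subunits 1 was higher, Atp6v1g3, and 1 lower, Atp6v0c (-0.23). Atp6v0c differed by -0.07 without WT NR 2 and WT NR 3.

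Cell type markers were read next. Fewer cells of a type and less RNA per cell cannot be told apart in bulk tissue. Of 20 Purkinje cell markers, 2 were higher and 0 lower at an unadjusted p under 0.05, Car8 and Klhl1, and the median was 0.05 (-0.03 to 0.16 with single arrays left out, below 0 without WT NR 1 or WT veh 4). Pcp2 and Calb1, named here as defining genes of these cells and not by rank, differed by -0.09 and 0.08, and both changed sign when single arrays were left out. Of 17 granule cell markers (median 0.0032) 1 was lower, the vesicular glutamate transporter Slc17a7, which gave 12.24, 12.15, 12.11 and 12.29 in WT veh and 12.03, 11.52, 11.49 and 11.82 in WT NR. The NR arrays were all lower, most of all WT NR 2 and WT NR 3. The difference was -0.48 (SE 0.13, adjusted p = 0.494), and -0.27 without WT NR 2 and WT NR 3. Slc17a7 fell in Atm-/- mice by 0.54 (adjusted p = 0.0263). It was not called there without Atm-/- veh 1 or 4 or Atm-/- NR 2, 3 or 4. Of 11 interneuron markers (median -0.05) 2 were higher, the gap junction gene Gjd2 (0.35) and Lgi2 (0.36).

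Neurons of the cerebellar nuclei varied more between mice than between treatments. Slc17a6, the vesicular glutamate transporter of nuclear neurons, gave 10.58, 5.91, 5.38 and 10.83 in WT veh and 7.13, 12.47, 12.75 and 11.28 in WT NR. Both groups held high and low arrays, so the difference of 2.73 had an SE of 1.64 (adjusted p = 0.748), and it was 1.80 without WT veh 3. Lhx9, a transcription factor of the same neurons, gave 6.33, 4.14, 4.12 and 8.57 in WT veh and 4.57, 10.98, 11.07 and 7.31 in WT NR, with a difference of 2.69 that was 0.11 without WT NR 2 and WT NR 3. Over the 10 measured markers of unipolar brush and nuclear neurons, the array mean ran from -1.31 to 0.92 in WT veh and from -0.99 to 0.87 in WT NR, and 9 of the 10 were well above background on all 8 arrays. The arrays highest in these markers within NR, WT NR 2 and WT NR 3, were also the highest NR arrays in Klhl1, Chrm2, Chrnb4, Adamts6 and Pstpip2. For Chrnb4, WT NR 1 at 8.82 was close to WT NR 2 at 8.85. The part of these neurons in those values was not tested.

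**Figure D3:**
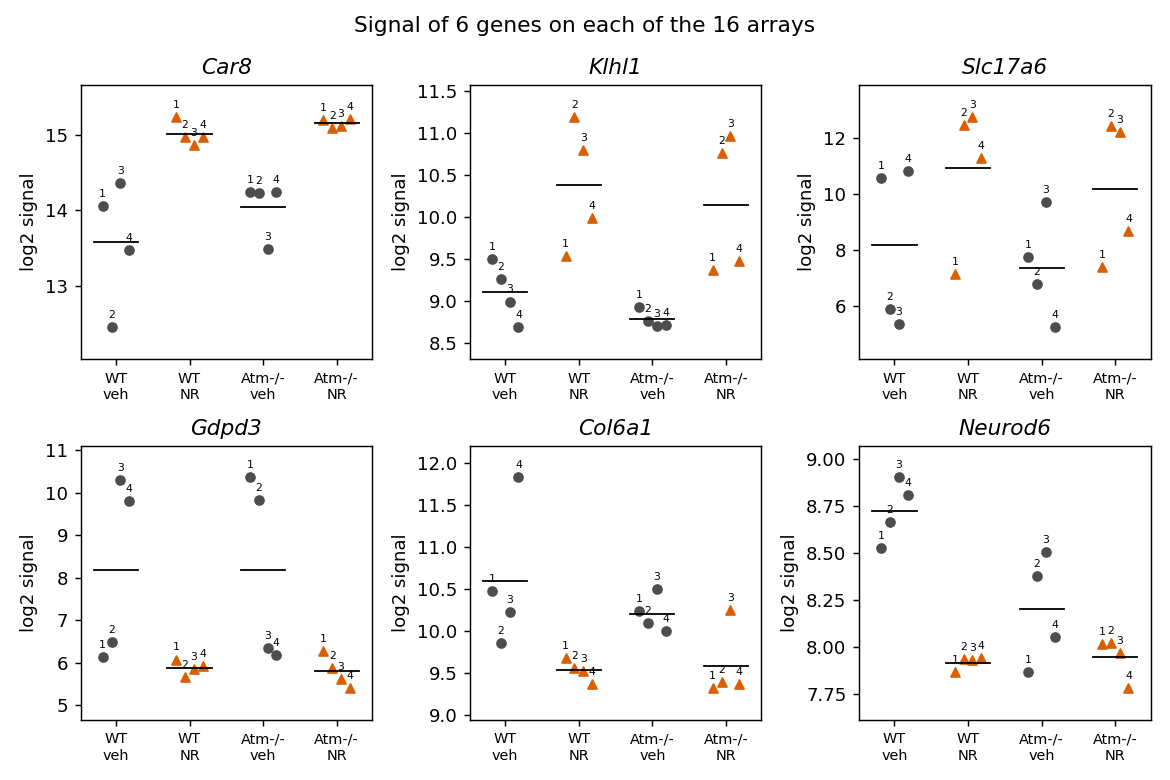
Log2 signal of 6 genes on all 16 arrays, with groups on the horizontal axis, the replicate number over each point and a line at the group mean. Car8 is higher and tight with NR in both genotypes, Klhl1 and Slc17a6 peak on arrays 2 and 3 of the NR groups, Gdpd3 is split within both veh groups, Col6a1 has its highest WT value on WT veh 4, and Neurod6 is lower on all 4 WT NR arrays.

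The clearest shift of a marker list was in fibroblasts and meninges. All 15 measured markers were lower in WT NR, 5 at an unadjusted p under 0.05, and the median was -0.53 (-0.37 without WT veh 4). Over all 16737 named genes, 8618 were lower, and 4.8% were lower at that p. Igf2, a growth factor secreted by the meninges, gave 11.29, 11.08, 10.99 and 12.03 in WT veh and 10.72, 10.94, 10.24 and 10.31 in WT NR. The NR arrays were all lower, WT NR 2 by very little. The difference was -0.79 (SE 0.30, adjusted p = 0.584). Slc22a6, an organic anion transporter, differed by -0.79 and Serping1, an inhibitor of complement, by -0.53, both with adjusted p = 0.571. Col1a2 (-0.42) and Aebp1 (-0.59) were the others, named with Igf2 after their values were seen. The array mean of the list ran from 0.05 to 0.63 in WT veh and from -0.44 to -0.06 in WT NR, with no overlap, and all 15 markers were well above background on all 8 arrays. In Atm-/- mice the median was -0.11 and 0 of the 15 were called.

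The elastic fibre and collagen list, which shares Col1a1 and Col1a2 with those markers, went the same way. In it 27 of 31 genes were lower, beside 8618 of all 16737 named genes. At an unadjusted p under 0.05, 5 of them were lower, beside 4.8% of all named genes. The median was -0.28 (-0.13 without WT veh 4). Tgfb1 gave 7.68, 7.68, 7.42 and 7.41 in WT veh and 7.11, 6.68, 6.83 and 7.25 in WT NR. All NR arrays were lower than all veh arrays at this probe, by 0.58 (SE 0.15, adjusted p = 0.476), while its other probe differed by -0.02. Ltbp3, which holds latent TGF-beta in the matrix, differed by -0.34 (SE 0.08, adjusted p = 0.47). Tgfb1 and Ltbp3 fell in Atm-/- mice by 0.82 (adjusted p = 0.00943) and 0.45 (adjusted p = 0.0113). The part of the meninges in the collagen values was not tested.

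Choroid plexus genes were lower at all 12 measured markers (median -0.54), beside 8618 of all 16737 named genes. However, 0 of the 12 had an unadjusted p under 0.05 and WT veh 4 stood alone. Kcnj13, a potassium channel of that epithelium, gave 9.23, 8.99, 9.84 and 13.22 in WT veh and 8.92, 9.15, 9.11 and 8.24 in WT NR. The array mean of the list was 2.35 on WT veh 4, from -1.48 to 0.55 on the other veh arrays and from -1.42 to 0.49 in WT NR, 10 of the 12 were well above background on all 8 arrays, and the median was -0.14 without WT veh 4 and -1.30 without WT veh 3.

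Neurod6, a transcription factor of forebrain pyramidal neurons, was the most even single difference of the marker lists. It gave 8.52, 8.67, 8.90 and 8.81 in WT veh and 7.86, 7.93, 7.93 and 7.94 in WT NR. The NR arrays were nearly equal and all below the veh arrays. The difference was -0.81 (SE 0.13, adjusted p = 0.229, with 0.0851 to 0.399 over the alternatives), and in Atm-/- mice it was -0.26 (adjusted p = 0.211). It did not follow the rest of the forebrain and brainstem list, whose array mean was 2.51 on WT veh 4 and between -0.996 and 0.70 on the other 7 arrays.

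Among glia, 16 of 17 mature oligodendrocyte markers were above 0, with a median of 0.31, beside 8119 of all 16737 named genes above 0. At an unadjusted p under 0.05, 4 of the 17 were higher, beside 4.03% of all named genes. They included Aspa (0.40), Fa2h (0.39) and, named after its value was seen, the myelin gene Mal (0.47). The groups overlapped for each of these. Aspa, which encodes aspartoacylase, gave 11.30, 11.08, 10.67 and 11.23 in WT veh and 11.05, 11.53, 11.51 and 11.78 in WT NR. WT veh 3 was the lowest and WT NR 4 the highest, as for the list as a whole (-0.63 and 0.56), and without WT veh 3 the median of the list was 0.15 and Aspa, Fa2h and Mal differed by 0.26, 0.22 and 0.31. Mal differed by 0.30 without WT NR 4. Of 13 oligodendrocyte precursor markers 0 had an unadjusted p under 0.05 (median 0.11, from -0.05 without WT veh 3 to 0.29 without WT veh 4), as did 0 of 23 microglia and macrophage markers (median -0.03), 0 of 18 endothelial and pericyte markers (median -0.03) and 0 of 11 blood markers (median -0.16). Of 19 Bergmann glia and astrocyte markers 1 was higher, Sox9 (0.54, with -0.12 at its other probe). WT NR 3 stood at 12.13 for Sox9, where the other NR arrays lay between 10.92 and 11.20, and without it the difference was 0.28.

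**Figure D4:**
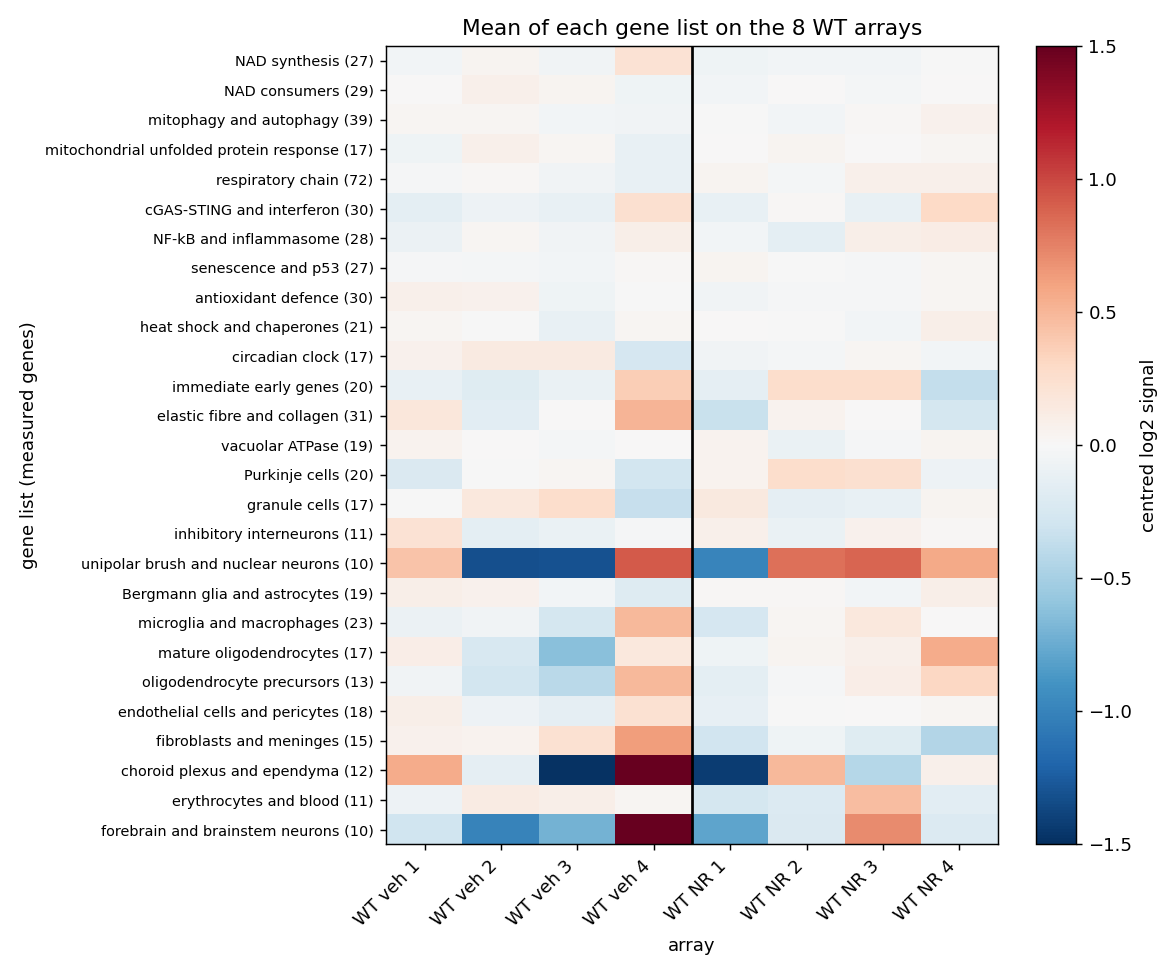
Colour gives the mean over the measured genes of a list of log2 signal centred on each gene over the 8 WT arrays, for each list (rows, number of genes in brackets) and each of the 8 WT arrays (columns, veh left of the line), with the colour scale ending at 1.5, below the 2.35 and 2.51 of choroid plexus and forebrain markers on WT veh 4. Fibroblast and meningeal markers are above 0 on all 4 veh arrays and below 0 on all 4 NR arrays, while choroid plexus and forebrain markers stand out on WT veh 4 alone and nuclear neuron markers vary within both groups.

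Of 25 measured genes that the study followed in its other assays, 0 had an unadjusted p under 0.05 and the median difference was 0.04. Many of those assays measured protein, while the arrays measure RNA. The study reports higher P16, IL1β, IL6 and phosphorylated STING protein with NR in wild-type mice. Cdkn2a, the gene of P16, is among the 25. It was dim and differed by 0.08, from -0.15 to 0.38 with single arrays left out. Il6 and Il1b are not among the 25, and RNA shows neither the level of P16 protein nor phosphorylation. These values therefore do not test that report. Of 16737 named genes, 0 were well above background on all 4 WT NR arrays and on none of WT veh, and 5 the other way round. Between 37843 and 42559 probes per array were well above background in WT veh and between 36402 and 40010 in WT NR. The part of this in the count was not tested. A bound was used for the NR side of 4 of the 5 genes, the higher of the measured signal and the lowest signal well above background on each array. As detection chose these genes, their values are a description. Slc26a7, an anion exchanger, was at least 1.39-fold lower (adjusted p = 0.567), Ston1 at least 1.34-fold, Pigl at least 1.32-fold and Pcare at least 1.08-fold, with limma adjusted p of 0.83, 0.571 and 0.75 for the last 3. The mean of Slc26a7 was 5.12 in WT veh and 3.37 as measured in WT NR.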

How the data were processed

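RNA from 16 mice (4 groups of 4) was measured on Agilent arrays of 1 colour. For each array, the authors deposited the intensity of every spot from Agilent Feature Extraction (version 12.0.3.1), background-subtracted but without normalization across arrays. A series-wide file of scores that the authors deposited, z-scores of the quantile-normalized spots, served only as an alternative. Its changes were multiplied by 4.01, the slope of the log2 changes on the z-score changes over all probes. 

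From these files, spots of controls were left out, and a probe was kept if a share of 0.5 or more of its spots passed the well above background mark on each of the 4 arrays in any 1 group. The log2 intensity was quantile normalized over the 16 arrays, outlier spots were set aside and spots of a probe were averaged, which left 37253 probes (65.8% of 56605) after 788 without a value on some array were dropped. RefSeq accessions (assembly GRCm38.p6) named 32994 probes, and the brightest kept probe stood for a gene. limma 3.58.1 in R 4.3.3 fitted 4 group means with 12 residual degrees of freedom, and Benjamini-Hochberg adjustment ran over all kept probes. The model was tested on simulated data. Mice are the replicates, grouped by their labels.

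A list was scored on each array as the average of its genes after each gene was centred on the 8 WT arrays. Genes named are the 12 largest positive and negative differences by the rule in the report, Atm, the 3 genes the study names, the 2 genes of lowest p in each list, the enzymes on the path from NR to NAD+, genes of proteins the study measured, up to 4 genes detected in only 1 WT group, and Xist and the Y-linked genes. Others are marked as chosen after their values were seen. All members and lists were chosen with earlier results of these data known.

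Alternatives were 75th percentile scaling, normexp (offset 50) on the signal and background columns, z-scores as deposited, all probes unfiltered, only those detected on all 16 arrays, the 8 WT arrays alone, each array left out, the replicate number as a block, the mean of all probes of a gene, the arrays without WT NR 1 and WT NR 4 or with Y-gene signal only, and the rules of the study's methods. Leaving out WT NR 2 with WT NR 3, or Atm-/- NR 2 with Atm-/- NR 3, was chosen after seeing the data.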

Additional observations from a re-analysis of the deposited data

Results flagged for a closer look

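In 9 of 120 sets of 4 values tested (a gene or a list in a WT group), 1 array stood apart from the other 3 by more than Dixon's 95% critical value for 4 values allows, which chance does in about 1 of 20 sets. Among single genes in WT veh, these were Dmrtb1 at 5.278 on WT veh 4, Grin2d at 9.721 on WT veh 1, Chrnb4 at 7.555 on WT veh 2, Msx1 at 11.76 on WT veh 4 and Kifc5b at 9.331 on WT veh 4, all as log2 signals. In WT NR it was Grn at 15.75 on WT NR 2. Among lists, immediate early genes stood at 0.37 on WT veh 4, unipolar brush and nuclear neuron markers at -0.9918 on WT NR 1 and blood markers at 0.4663 on WT NR 3, as mean log2 signal minus the mean of the 8 WT arrays. The low Dmrtb1 and Chrnb4 arrays widen the distance to WT NR, and so do the high Msx1 and Kifc5b arrays and the low Grin2d and Grn arrays.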

How the results depend on the processing

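In WT NR against WT veh, probes called numbered 0 with 75th percentile scaling, with normexp, with the z-scores as deposited, with dim probes kept, with a filter that asks for detection on all 16 arrays, and over the 8 WT arrays alone. Leaving out single arrays gave 0 to 6 calls. There were 6 calls when WT NR 4 was left out, 2 when WT NR 2 was, and 1 when WT veh 2, 3 or 4 or Atm-/- veh 1 was. The count was 44 without WT NR 1 and WT NR 4, 32 over the arrays with Y-gene signal only and 23 without WT NR 2 and WT NR 3, where fewer arrays enter the fit. In every fit with arrays left out, the background filter and the normalization were applied again to the arrays that remained. A probe could then enter through detection on the remaining WT NR arrays alone, where it is high. These counts are therefore no support for an NR effect, and the part of the filter in them was not tested. The methods' t-test put 2476 probes under its threshold. The z-ratio rule of the study's methods, rebuilt because its ANOVA and FDR definitions are not given in the sources used here, called 605 probes without its condition on the average signal and 108 when the mean z-score had to be above 0.

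The difference of the NR effects between genotypes was called at 0 probes, at 0 to 2 with single arrays left out (2 without Atm-/- NR 3, 1 without WT NR 4 or Atm-/- veh 2), at 13 without WT NR 1 and WT NR 4, at 5 over the arrays with Y-gene signal only, at 3 without WT NR 2 and WT NR 3 and at 14 without Atm-/- NR 2 and Atm-/- NR 3. Of the 24 genes named by rank, 7 were called in Atm-/- mice, 2 to 7 with single arrays left out, 2 without a filter on dim probes, 4 without WT NR 1 and WT NR 4, 1 over the arrays with Y-gene signal only and 1 without Atm-/- NR 2 and Atm-/- NR 3. The filter was applied again in the fits with arrays left out here too, and the causes were not tested.

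The labels do not say that a replicate number marks a shared litter or day, and samples of the same number did not deviate together (correlations of -0.148, -0.052, -0.098 and -0.087). A block for the replicate number gave 0 probes in WT, 0 for the difference between genotypes and 5 of the 24 genes in Atm-/- mice.

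Genes whose difference changed sign under an alternative were called under none of the alternatives run. Cdkn2a was -0.080 with the deposited z-scores, -0.068 without a filter, -0.85 without WT NR 1 and WT NR 4 and -0.77 over the arrays with Y-gene signal only. Under the same last 2 settings, Nkg7 was -0.087 and -0.085 and Nmnat1 -0.061 and -0.061. Without WT NR 2 and WT NR 3, Ifit2 was -0.015, Nmnat2 0.0067 and Nlrp3 0.045. With single arrays left out, Cdkn2a ran from -0.15 to 0.38, Nkg7 from -0.033 to 0.26, Nlrp3 from -0.28 to 0.036, Nmnat1 from -0.015 to 0.15, Nmnat3 from -0.088 to 0.32, Nmrk1 from -0.22 to 0.0095 and Rela from -0.030 to 0.11. Of the single-gene values over all alternatives, 2650 kept their sign and side of the threshold, 22 changed sign and 4, all of Dmrtb1 or Pstpip2, passed the threshold only under the alternative. The medians of 16 of 29 lists changed sign with some single array left out, all of them within 0.18 of 0 over all arrays.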
